A study of Mus musculus with 8 samples.

Results

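Interferon response genes are a set of 38 mouse genes that interferons are known to switch on, among them antiviral effectors, nucleic acid sensors and the factors that transmit the signal. A gene was measured where a probe set of the array carried its symbol alone, and its value was that of the probe set with the highest mean over all arrays. By this rule 36 of the 38 genes were measured, with 55 probe sets, among 18193 genes and 45037 probe sets in all. Isg15, the ubiquitin-like modifier, shares its probe set with a further symbol, and Ifi44 was not matched to a probe set, so neither has a value here.

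The study set wild-type mice against Crebbp+/- mice, which carry 1 inactivated copy of the gene for the transcriptional coactivator and acetyltransferase CBP, all on the C57BL/6 background. Haematopoietic stem cells were sorted from fetal liver as Sca-1+, Lin-, AA4.1+ and c-Kit++ cells, with 15 embryos pooled for each preparation. Age is given both as 14.5 and as 14 days post coitum. For each genotype the labels number 2 samples, each measured on 2 Affymetrix mouse expression arrays, from 12 ng of total RNA that was amplified before labelling. Arrays of the same sample were averaged, which left n = 2 samples per genotype, and no label ties a sample to its own litter, so p-values measure only the spread between these preparations.

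Type I interferons bind the receptor Ifnar1/Ifnar2 and act through Jak kinases on a complex that holds Irf9, which binds the interferon-stimulated response element (ISRE) of target genes. Interferon gamma is known for acting through the gamma-activated site (GAS). CBP is a known coactivator at such promoters, and haematopoietic stem cells are known to respond to interferons and to hold some interferon-stimulated genes at a steady level without infection.

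The 2 elements were searched in RefSeq promoter windows (GRCm38.p6), which run from 250 bases before to 50 bases after each gene's start. The ISRE was searched on both strands as GAAA, any 2 bases and GAAA again, and the GAS as TTC, any 3 bases and GAA, which reads alike on both strands. A window was given for 31 of the 38 genes. The ISRE letters were present in 15 of the 31 (48.4%), against 3.99% of 27025 genes with a window. The GAS letters were present in 10 of the 31 (32.3%), against 9.55% of all genes. Short stretches around a match that lies upstream of the start are shown for 4 genes with an ISRE and 2 with a GAS. They are printed 5′ to 3′ on the strand of the gene, with the match in capitals, to show the letters found at these genes. Whether interferon factors bind at these matches was not tested.
Gbp2, ISRE, chr3:142620584-142620633, plus strand: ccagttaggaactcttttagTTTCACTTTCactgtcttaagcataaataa
Oas3, ISRE, chr5:120777705-120777754, minus strand: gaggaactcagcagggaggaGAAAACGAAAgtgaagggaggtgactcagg
Bst2, ISRE, chr8:71537567-71537622, minus strand: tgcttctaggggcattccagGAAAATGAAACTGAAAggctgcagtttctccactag
Rsad2, ISRE, chr12:26456543-26456592, minus strand: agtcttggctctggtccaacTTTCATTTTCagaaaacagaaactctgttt
Irf1, GAS, chr11:53769904-53769952, plus strand: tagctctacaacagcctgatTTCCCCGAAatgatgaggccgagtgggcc
Psmb8, GAS, chr17:34198078-34198126, plus strand: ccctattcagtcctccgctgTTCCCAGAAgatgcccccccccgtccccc
In Gbp2 and Rsad2 the match lies on the opposite strand and therefore reads as TTTC repeats. In Bst2 the capitals cover 2 overlapping matches, and a GAS match overlaps the first of them. In Oas3 the match starts 75 bases before the start of the gene, in Gbp2 59 bases, in Rsad2 120 bases and in Irf1 90 bases.

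Values below are the deposited log2 signals in the order wild type sample 1, wild type sample 2, Crebbp+/- sample 1 and Crebbp+/- sample 2, and differences are Crebbp+/- minus wild type on the log2 scale. Background was set at 2.43, the 95th percentile of the wild-type signal of 43 olfactory receptor probe sets, genes that blood cells are not known to use. In wild type 34 of the 36 measured genes lay above it in both samples, against 62.2% of all measured genes. The exceptions were Zbp1, a sensor of Z-form nucleic acid, at 2.32 in both wild-type samples, and the antiviral GTPase gene Mx2, at 2.24 in both. Irf7, Ifit3, Oas3 and Oasl1 lay close to background, with the lower wild-type sample at 2.77, 2.74, 2.62 and 2.72. The highest of the olfactory receptor probe sets, at 2.81, was also used as the limit, a choice made after the values were seen. The count was then 30, without Irf7, Ifit3, Oas3 and Oasl1. Signals of different genes were not ranked against each other, since probes differ in signal at the same amount of RNA.

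**Figure D1:**
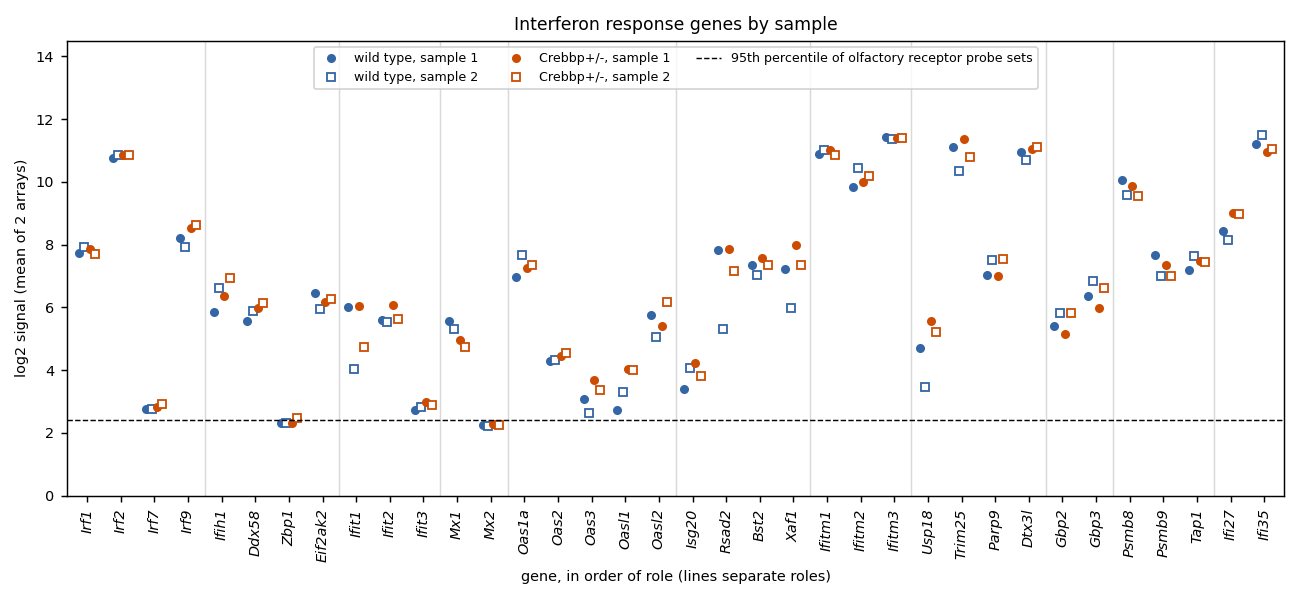
Log2 signal (vertical axis) of the 36 measured interferon response genes in the 4 samples, each point the mean of 2 arrays, ordered by role, with wild type in blue, Crebbp+/- in orange, sample 1 filled and sample 2 open. The dashed line marks background at 2.43, and Rsad2, Ifit1, Usp18 and Xaf1 show 1 wild-type point, sample 2, below the other 3.

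No interferon response gene passed the test between genotypes. Of 34 genes whose brightest probe set passed the filter on low signal, 0 had a limma adjusted p under 0.05, as was true of 0.00% of all 22518 probe sets tested, and the lowest adjusted p of any probe set was 0.991. At an unadjusted p under 0.05, 4 of the 34 genes (Ifi27, Oas3, Oasl1 and Usp18) were higher in Crebbp+/-, against 1.39% of all 10600 genes tested, and 0 were lower, against 1.28%. The count of 4 changed when any 1 sample was left out, and so did the share over all genes. Such a fit leaves a single sample in a group, so only differences are given for it. Over the alternatives run, the difference ranged from 0.56 to 0.86 for Ifi27 and from 0.46 to 0.91 for Oas3. It ranged from 0.71 to 1.30 for Oasl1 and from 0.69 to 1.94 for Usp18. With 2 samples against 2, an exact permutation test cannot go below 0.33. The 95% interval of a gene's difference extended 0.34 to 2.30 log2 units to either side, with a median of 0.73, before any adjustment for the number of probe sets.

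The direction was described within sample numbers, that is, Crebbp+/- sample 1 against wild type sample 1 and likewise for sample 2. The difference was positive within both numbers for 17 of the 34 genes, against 37.2% of all genes tested, and negative within both for 5, against 24.7%. Both Crebbp+/- samples lay above both wild-type samples for 12 of the 34 genes (all genes 17.1%), and below for 2, Ifi35 and Mx1 (11.0%). All 4 Crebbp+/- arrays lay above all 4 wild-type arrays for Ddx58, Ifi27, Irf9 and Oasl1, that is 4 of 34 against 3.68% of all genes, and below for 0, against 1.99%. The median difference over the 34 genes was 0.18, against 0.04 over all genes tested. It was 0.14 within samples numbered 1 and 0.12 within samples numbered 2.

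These counts were also read by signal level. Among the 4 genes with a wild-type mean less than 1 log2 unit above the median of all probe sets (Ifit3, Irf7, Oas3 and Oasl1), 4 were higher within both numbers and the median difference was 0.43. The wild-type mean is itself a term of the difference, so this split favours positive differences among these 4 genes and cannot show a part of signal level. Among the other 30, 13 were higher (all genes tested 37.2%) and 5 lower (24.7%) within both numbers. Their median was 0.12 (all genes tested 0.04). When only the upper 25% of probe sets was kept, 7 of 18 genes were higher and 2 lower within both numbers, and the median was 0.015. With the same filter 41.1% of all genes were higher and 23.7% lower within both numbers, and their median was 0.06, so neither the share of higher interferon response genes nor their median was then above that of all genes.

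**Figure D2:**
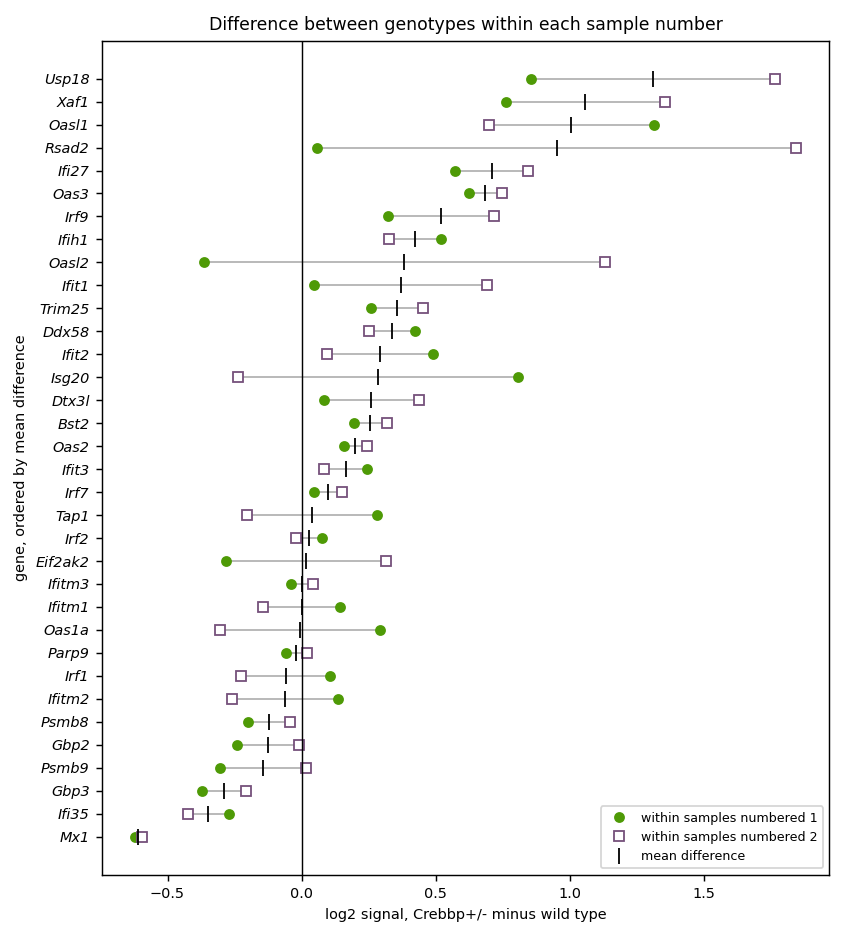
Difference in log2 signal between Crebbp+/- and wild type (horizontal axis) for the 34 interferon response genes tested, within samples numbered 1 (filled) and numbered 2 (open), with the mean as a black tick, ordered by the mean. Usp18, Xaf1 and Oasl1 have the highest means (1.31, 1.06 and 1.01) and Mx1 the lowest (-0.61), and Rsad2 and Oasl2 have the widest gaps between their points.

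Among the transcription factors, Irf9 was the one in which the genotypes stood apart on every array. Irf9, a DNA-binding subunit of the complex that reads the ISRE, measured 8.21, 7.92, 8.53 and 8.63. Both Crebbp+/- samples were above both wild-type samples, with a difference of 0.52 (SE 0.23, limma adjusted p = 0.991), and the difference ranged from 0.37 to 0.67 over the alternatives run. Irf1, an activator that interferon gamma is known to induce, measured 7.75, 7.92, 7.85 and 7.69, and the groups overlapped (difference -0.06, SE 0.24). Irf2, known as an antagonist of Irf1 at shared sites, measured 10.78, 10.87, 10.85 and 10.85, and its difference of 0.03 had a 95% interval from -0.35 to 0.40. Irf7, which amplifies the type I response after infection, measured 2.77, 2.77, 2.82 and 2.92, which is close to background in all samples.

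Of the sensors, Ddx58 (RIG-I) and Ifih1 (MDA5) recognise viral RNA and Eif2ak2 (PKR) halts translation on double-stranded RNA. Ddx58 measured 5.57, 5.90, 5.99 and 6.15, so that both Crebbp+/- samples were above both wild-type samples (difference 0.34, SE 0.29), but a further probe set of the gene differed by -0.05. Ifih1 measured 5.84, 6.62, 6.36 and 6.95. Its sample numbers differed by more than its genotypes, with sample 2 higher in each genotype, and its difference of 0.42 (SE 0.41) was 0.03 without wild type sample 1 and 0.81 without wild type sample 2. Eif2ak2 measured 6.47, 5.96, 6.19 and 6.27 with a difference of 0.02, whereas its 2 other probe sets differed by 0.44 and 1.16.

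The Ifit genes encode proteins that bind foreign RNA, and their 3 members were higher within both numbers, by unequal amounts. Ifit1 measured 6.01, 4.04, 6.05 and 4.74, with sample 2 lower than sample 1 in both genotypes, and its difference of 0.37 (SE 0.81) was -0.61 without wild type sample 2 and 1.35 without wild type sample 1. Ifit2 measured 5.59, 5.54, 6.08 and 5.64, with Crebbp+/- sample 1 highest (difference 0.29, SE 0.31). Ifit3 measured 2.74, 2.82, 2.99 and 2.90, near background throughout. Ifit2 and Ifit3 are neighbours on chromosome 19 with 0 coding genes between them in the GRCm38.p6 gene order.

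The OAS family makes the second messenger that activates RNase L (Oas1a, Oas2, Oas3) or consists of OAS-like proteins (Oasl1, Oasl2). Oasl1, known in mice as a restraint on Irf7 translation, measured 2.72, 3.30, 4.03 and 3.999. All Crebbp+/- arrays were above all wild-type arrays, with a difference of 1.01 (SE 0.27, 95% interval 0.29 to 1.72, limma adjusted p = 0.991). It was 1.31 within samples numbered 1 and 0.70 within samples numbered 2, and 0.71 to 1.30 over the alternatives. Oas3 measured 3.08, 2.62, 3.70 and 3.37, with both Crebbp+/- samples above both wild-type samples, and differed by 0.69 (SE 0.26, limma adjusted p = 0.991). Without wild type sample 2 the difference of Oas3 was 0.46. For Oasl1 as for Oas3, wild-type signal lay near background, with the lower wild-type sample at 2.72 and 2.62. Log2 differences of this normalization have no fixed scale there, which limits the size and interval given for each gene.

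Oas2 measured 4.28, 4.32, 4.44 and 4.56, with a difference of 0.20 (SE 0.24). Oas1a measured 6.97, 7.67, 7.26 and 7.36, with both Crebbp+/- samples between the wild-type samples. Oasl2, the neighbour of Oasl1 on chromosome 5, measured 5.77, 5.06, 5.40 and 6.19, and its difference was -0.36 within samples numbered 1 and 1.13 within samples numbered 2. The genes of this family therefore had no shared direction, with 3 of 5 higher within both numbers.

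Of the other antiviral effectors, Xaf1, an interferon-inducible promoter of apoptosis, measured 7.24, 5.99, 8.003 and 7.35. Both Crebbp+/- samples were above both wild-type samples, wild type sample 2 being lowest by over 1 unit, and the difference was 1.06 (SE 0.52, limma adjusted p = 0.991). It was 0.43 without wild type sample 2 and 1.68 without wild type sample 1. Rsad2 (viperin), a radical SAM enzyme that yields a chain-terminating nucleotide, measured 7.82, 5.31, 7.88 and 7.16. Only wild type sample 2 was apart from the other 3 samples, and the difference of 0.95 (SE 0.88) was 0.06 within samples numbered 1, 1.85 within samples numbered 2 and -0.30 without wild type sample 2. A further Rsad2 probe set differed by 0.01.

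Bst2 (tetherin), which holds budding virions at the cell surface, measured 7.37, 7.04, 7.56 and 7.36, with a difference of 0.26 (SE 0.27). Isg20, an exonuclease, measured 3.41, 4.06, 4.22 and 3.82 and had opposite directions within the 2 numbers, 0.81 and -0.24. Mx1, of the Mx GTPases, measured 5.58, 5.33, 4.96 and 4.73. Both Crebbp+/- samples lay below both wild-type samples, with a difference of -0.61 (SE 0.28, limma adjusted p = 0.991) that was -0.62 and -0.60 within the numbers. RefSeq lists Mx1 and Mx2 of the C57BL/6J reference as transcribed pseudogenes, so the Mx1 signal need not stand for a full protein.

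The 3 Ifitm genes, whose proteins block fusion of virus with the cell membrane, had values of nearly the same size in both genotypes. Ifitm1 measured 10.88, 11.02, 11.03 and 10.87, Ifitm2 9.85, 10.44, 9.99 and 10.18, and Ifitm3 11.43, 11.36, 11.39 and 11.41. The groups overlapped for each, and the 95% interval of the difference ran from -0.40 to 0.40 for Ifitm1, from -0.73 to 0.61 for Ifitm2 and from -0.33 to 0.34 for Ifitm3. They lie side by side on chromosome 7. Their probes sample related sequences, and how far these share signal was not tested.

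Usp18 had the greatest mean difference of the 34 genes. It encodes the protease that removes ISG15 from proteins and, at the receptor, limits type I signalling. Usp18 measured 4.70, 3.45, 5.56 and 5.22, with both Crebbp+/- samples above both wild-type samples, and the difference was 1.31 (SE 0.49, 95% interval 0.04 to 2.59, limma adjusted p = 0.991). It was 0.86 within samples numbered 1 and 1.77 within samples numbered 2, and 0.69 without wild type sample 2 against 1.94 without wild type sample 1. Trim25, the ubiquitin ligase that acts with RIG-I, measured 11.11, 10.35, 11.37 and 10.81, with sample 2 lower in each genotype, and differed by 0.36 (SE 0.34) and by -0.02 without wild type sample 2. Further Trim25 probe sets differed by 0.79 (SE 0.49), with sample 2 again lower in each genotype, and by 0.16 (SE 0.24).

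Parp9 and Dtx3l encode a partner pair of an ADP-ribosyltransferase and a ubiquitin ligase, and are neighbours on chromosome 16 with 0 coding genes between them. Dtx3l measured 10.95, 10.69, 11.03 and 11.13, with both Crebbp+/- samples above both wild-type samples (difference 0.26, SE 0.16), whereas a further probe set of Dtx3l differed by -0.06. Parp9 measured 7.05, 7.52, 6.99 and 7.54, which gave a difference of -0.02 (SE 0.34). Crebbp+/- sample 2 was the highest for both neighbours, and the lowest was wild type sample 2 for Dtx3l and Crebbp+/- sample 1 for Parp9.

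Of the 5 guanylate-binding and antigen processing genes, 3 were lower and 0 higher within both numbers, where 24.7% of all genes were lower, and none passed the test. The sign of all 3 turned when 1 sample was left out: Gbp3 reached 0.03 and Gbp2 0.20 without Crebbp+/- sample 1, and Psmb8 0.11 without wild type sample 1. Gbp3, a guanylate-binding GTPase of cell-autonomous defence, measured 6.37, 6.84, 5.998 and 6.63 (difference -0.29, SE 0.37). Gbp2, of the same family, measured 5.40, 5.82, 5.16 and 5.81 (difference -0.12, SE 0.37), and its second probe set had the other sign, 0.42. Psmb8 and Psmb9, catalytic subunits of the immunoproteasome, and Tap1, the peptide transporter, are adjacent on chromosome 17.

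Psmb8 measured 10.06, 9.58, 9.86 and 9.54 (difference -0.12, SE 0.25). Psmb9 measured 7.67, 6.99, 7.36 and 7.005 (difference -0.14, SE 0.35). Tap1 measured 7.19, 7.64, 7.47 and 7.44 (difference 0.04, SE 0.28). For the Psmb genes sample 1 was the higher one in each genotype, and for Tap1 both Crebbp+/- samples lay between the wild-type samples.

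Ifi27 and Ifi35 are interferon-induced genes whose roles are less clear. Ifi27 measured 8.44, 8.14, 9.01 and 8.99. All Crebbp+/- arrays were above all wild-type arrays, and the difference was 0.71 (SE 0.22, 95% interval 0.13 to 1.29, limma adjusted p = 0.991), or 1.63-fold. A further Ifi27 probe set measured 6.89, 6.72, 7.90 and 7.50, a difference of 0.90, and over the alternatives the brightest probe set gave 0.56 to 0.86. Ifi35 measured 11.22, 11.49, 10.95 and 11.06, with both Crebbp+/- samples below both wild-type samples (difference -0.35, SE 0.16, limma adjusted p = 0.991). Its other probe sets differed by -0.03 and -0.11.

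Differences were also read by the presence of the promoter letters. The 14 tested genes with an ISRE match had a median difference of 0.10 and the 15 with a window but no match 0.26, beside 0.06 and 0.04 for all genes with and without a match. For the GAS the medians were 0.01 in 10 genes with and 0.34 in 19 without a match. Usp18, Ifi27, Mx1, Oas2 and Parp9 were tested but had no window, so these medians leave them out. Their differences were 1.31, 0.71, -0.61, 0.20 and -0.02. Oasl1, Xaf1, Irf9 and Trim25 had no ISRE letters in their windows, and Oas3, Rsad2 and Bst2, shown above, had them.

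Several of these genes also differed between the samples of the same genotype. In wild type, sample 2 minus sample 1 was -2.51 for Rsad2, -1.96 for Ifit1, -1.25 for Usp18, -1.25 for Xaf1 and -0.76 for Trim25. In Crebbp+/- the same contrast was -0.72 for Rsad2, -1.32 for Ifit1, -0.34 for Usp18, -0.66 for Xaf1 and -0.56 for Trim25. Over the 34 genes, sample 2 was lower by over 0.5 in 8 in wild type (23.5%, all genes 17.1%) and in 4 in Crebbp+/- (11.8%, all genes 12.3%). It was higher by over 0.5 in 5 in wild type (14.7%, all genes 14.6%) and in 5 in Crebbp+/- (14.7%, all genes 15.0%), and the median over the 34 was -0.03 in each genotype. Wild type sample 2 also had the lowest Gapdh 5′ minus 3′ signal, a sign of shorter amplified RNA: -1.22, -2.59, -0.89 and -1.88. The Gapdh measure was higher in Crebbp+/- by 0.33 within samples numbered 1 and by 0.71 within samples numbered 2. Its part in the differences of these genes was not tested.

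**Figure D3:**
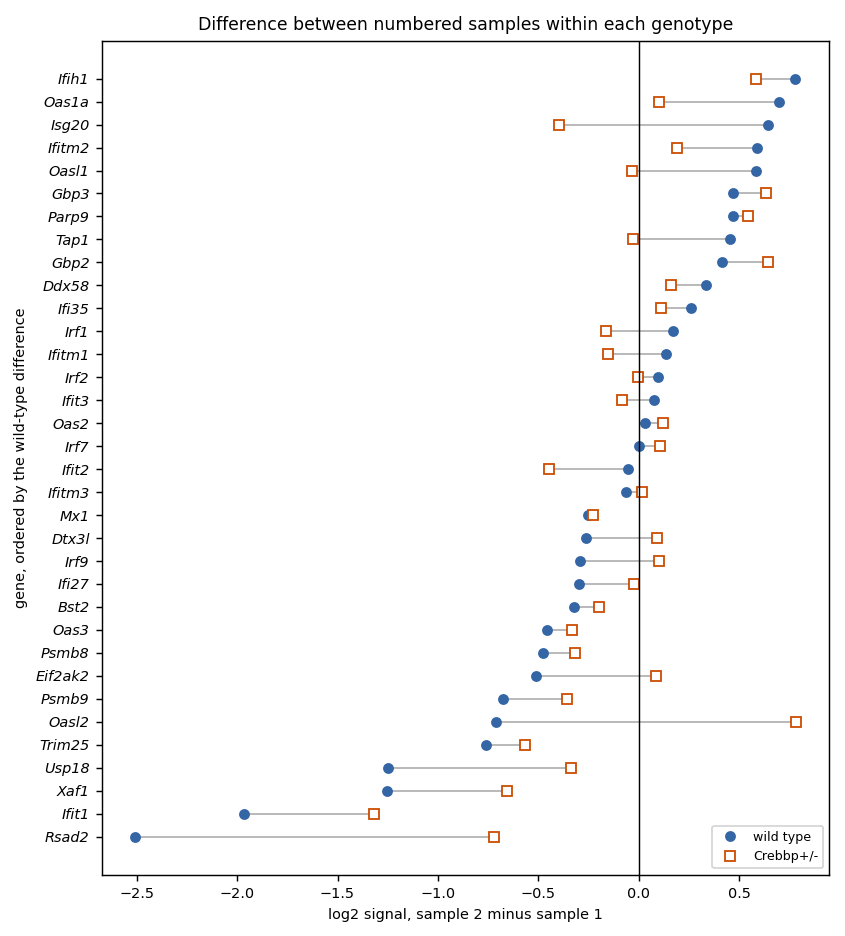
Difference in log2 signal between sample 2 and sample 1 (horizontal axis) of the 34 interferon response genes tested, in wild type (filled) and Crebbp+/- (open), ordered by the wild-type difference. Rsad2 (-2.51) and Ifit1 (-1.96) have the lowest wild-type values, and the Crebbp+/- points of both lie closer to 0.

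The rest of the pathway was examined through 112 further measured genes in lists of ligands, receptors, signalling, sensing, interferon regulatory factors, MHC class I and other interferon-stimulated genes. Of the 85 tested, 0 passed limma at an adjusted p under 0.05. At an unadjusted p under 0.05, 3 were higher (Irf4, Dhx58 and Rtp4), against 1.39% of all genes, and 0 lower, against 1.28%. The difference was positive within both numbers for 37 (all genes 37.2%) and negative for 19 (all genes 24.7%), and the median was 0.06.

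Of 10 interferon ligand genes measured, 2 lay above background in wild type, Ifna5 at 2.58 and 2.60, close to it, and Ifnz. Ifnb1, the ligand first made after infection, stayed at 2.28 in all samples. Ifnz, which encodes interferon zeta, measured 6.93, 6.98, 6.82 and 6.84. It was the one ligand gene tested, with both Crebbp+/- samples below both wild-type samples by a small amount (difference -0.12, SE 0.25).

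Of 5 receptor genes tested, 3 were higher within both numbers, and the median was 0.35. Ifngr2, the accessory chain of the interferon gamma receptor, measured 5.27, 4.86, 5.83 and 5.40, with both Crebbp+/- samples above both wild-type samples (difference 0.55, SE 0.33). Ifnar1, the type I receptor chain, measured 8.32, 7.13, 8.52 and 7.73, with sample 2 lower in both genotypes (difference 0.41, SE 0.51). Ifngr1 differed by -0.05 and Il10rb, a chain shared with the lambda receptor, by 0.35.

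Of 13 signalling genes and inhibitors, 6 were higher and 2 lower within both numbers, with a median of 0.05. Jak2, the kinase of the gamma receptor, differed by 0.07, and Ptpn11, the phosphatase SHP2, by 0.24. Cish, a feedback inhibitor of cytokine receptors, differed by 0.54. Of 19 sensing genes, 6 were higher and 7 lower within both numbers, with a median of 0.04. Dhx58 (LGP2), the relative of RIG-I, measured 4.50, 3.49, 5.17 and 5.14, with both Crebbp+/- samples above both wild-type samples (difference 1.16, SE 0.41, limma adjusted p = 0.991), and wild type sample 2 was again the lowest. Cgas differed by 0.05 and Dhx9 by 0.04.

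Irf3, which starts the transcription of Ifnb1, measured 8.51, 8.70, 8.04 and 8.20, so that both Crebbp+/- samples were below both wild-type samples (difference -0.49, SE 0.22, limma adjusted p = 0.991). Irf4, a lymphoid and dendritic cell factor, measured 5.04, 5.30, 6.74 and 6.17 and differed by 1.28 (SE 0.34, limma adjusted p = 0.991). The list of interferon regulatory factors outside the set had 6 measured genes, among them Irf2bp1 and Irf2bp2, which encode Irf2-binding proteins. It held both directions, 2 higher and 2 lower within both numbers, and Irf2bp2 differed by 0.44.

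Of 12 genes of antigen processing and MHC class I, 7 were higher and 3 lower within both numbers, and the median was 0.05. B2m, the light chain of MHC class I, differed by 0.12 and Calr, a chaperone of its assembly, by 0.08. Nlrc5, the transactivator of MHC class I genes, differed by -0.58 and H2-K1, a heavy chain, by -0.40. Of 33 other interferon-stimulated genes, 14 were higher and 7 lower within both numbers, with a median of 0.13.

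Rtp4, an interferon-induced gene with antiviral activity, measured 6.68, 6.70, 7.58 and 7.78. The samples of each genotype lay close together and apart from the other genotype, with a difference of 0.99 (SE 0.25, limma adjusted p = 0.991). Parp14, an ADP-ribosyltransferase like Parp9, measured 7.54, 7.63, 8.06 and 8.15, a difference of 0.52 (SE 0.23, limma adjusted p = 0.991). Ly6e differed by 0.21 and Trim30a by 0.13.

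**Figure D4:**
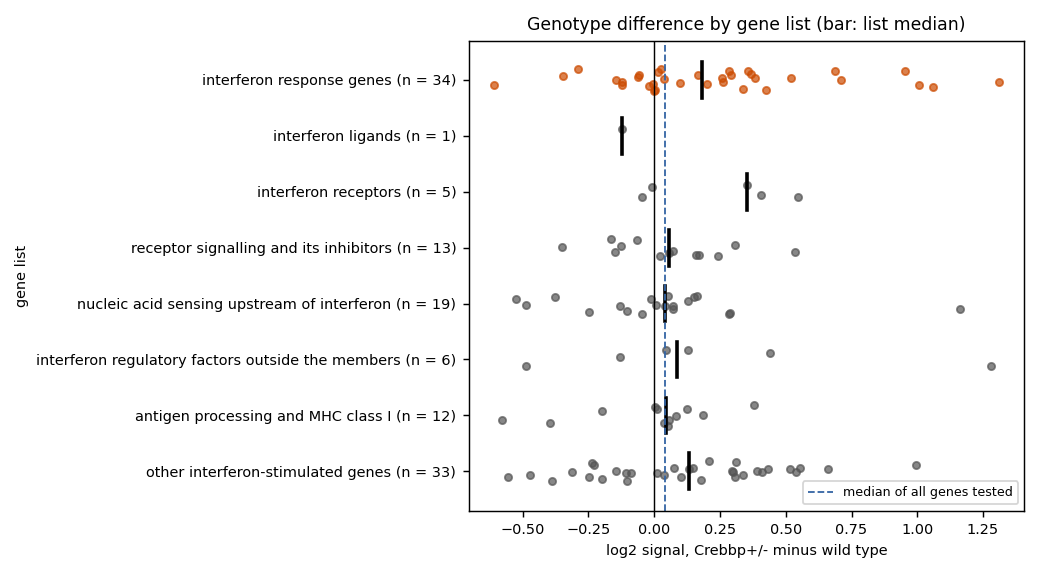
Difference in log2 signal between Crebbp+/- and wild type (horizontal axis) of each gene tested, by list, with the interferon response genes in orange, the other lists in grey, list medians as black bars and the median of all genes tested (0.04) as a dashed line. The medians are 0.18 for the 34 interferon response genes, 0.35 for 5 receptors and between -0.12 and 0.13 for the other lists.

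Markers of the sorted cells and of other cell types were read in the same arrays. All 14 measured stem cell identity genes lay above background, and their summed linear signal was 32580, 30020, 30082 and 30933. Of these 14, 3 (Meis1, Hlf and Mecom) were lower in Crebbp+/- at an unadjusted p under 0.05, against 1.28% of all genes tested. Each had a limma adjusted p = 0.991. Within both numbers 5 of the 14 were lower and 2 higher, and the median difference was -0.06. Meis1, a factor of stem cell maintenance, measured 7.99, 7.52, 6.92 and 6.08. Ly6a, which encodes Sca-1, was not analysed here. Macrophage markers, cells known for high interferon-stimulated gene levels, were above background for 4 of 13, with sums of 1768, 2539, 1249 and 2513, mostly Csf1r and Lyz2. Of the 5 macrophage markers tested, 2 were higher and 1 lower within both numbers, and the median difference was -0.18. Lyz2 measured 9.56, 9.42, 9.03 and 8.89, lower in Crebbp+/- within both numbers (difference -0.54). Cd68 differed by -0.28 and Csf1r by -0.18. C1qb measured 2.59, 3.53, 2.77 and 3.96, higher in Crebbp+/- within both numbers (difference 0.31). Mrc1 measured 2.42, 2.44, 2.61 and 3.61, above background in both Crebbp+/- samples and not in both wild-type samples (difference 0.68, SE 0.36). Adgre1, which did not pass the filter, measured 2.36, 3.07, 2.36 and 2.72, above background only in sample 2 of each genotype. Its difference was -0.001 within samples numbered 1 and -0.35 within samples numbered 2. C1qa, C1qc, Cd163, Timd4, Marco, Vsig4 and Cd5l were not above background in wild type. Plasmacytoid dendritic cell markers were above background for 5 of 8, with sums of 3548, 3022, 3568 and 3327, mostly Tcf4. Siglech, which defines that cell, was not above background. Of the 4 tested, 2 were higher (all genes 37.2%) and 0 lower (24.7%) within both numbers, and the median difference was 0.29. Ccr9 measured 7.38, 6.66, 8.40 and 8.49 (difference 1.43, SE 0.33, limma adjusted p = 0.991). Cox6a2 differed by 0.44, Klk1 by 0.14 and Tcf4 by -0.03. Hepatocyte markers summed to 62.5, 896, 325 and 474, lowest in wild type sample 1 and highest in wild type sample 2. Erythroid markers summed to 31.1, 31.95, 34.3 and 36.5, T, B and NK markers to 63.9, 68.3, 65.7 and 73.5, and granulocyte and monocyte markers to 55.6, 53.9, 47.0 and 47.6. Endothelial markers summed to 1096, 884, 836 and 871. Of 4 endothelial markers tested, 3 were lower (all genes 24.7%) and 0 higher (37.2%) within both numbers, with a median difference of -0.55. Tie1 differed by -0.73, Esam by -0.62, Pecam1 by -0.49 and Tek by 0.06, and none passed the limma test. The part of other cell types in these differences was not tested, and in bulk RNA fewer cells of a type and less RNA per cell cannot be told apart. Crebbp itself was measured by 4 probe sets, of which the brightest read 12.07, 11.41, 11.95 and 11.66 and the others differed by 0.01, -0.42 and -0.35. Whether these probe sets lie in the altered part of the gene is not given in the sources used here, so they do not check the labels.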

How the data were processed

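The deposited values are log2 signals of 8 arrays, which the authors made with GCRMA, per the submitters' processing notes. This method corrects background by probe sequence and normalizes arrays to each other; the sources used here give no version. GCRMA leaves each probe set a floor of its own, so small differences near background have no fixed scale. Gene names came from the platform annotation, with 34741 gene identifiers matched to the GRCm38.p6 gene table, and of 45037 probe sets left after removal of 64 control probe sets, 34945 carried 1 symbol, 932 several and 9160 none.

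Arrays of the same numbered sample were averaged. The 22518 probe sets with a mean over 8 arrays above the median of 2.72 entered a model of genotype alone in limma 3.58.1 under R 4.3.3 (lmFit, then eBayes with trend), 2 samples against 2, with Benjamini-Hochberg adjustment over all of them and a threshold of 0.05. Residual degrees of freedom were 2 (4.75 after moderation), and the script was tested on simulated data. The number of arrays limits the precision. Counts, lists and motif searches were made in Python 3.11.15 with pandas 2.3.3.

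The members and lists were chosen with earlier results of these data known. Values in every sample are given for members above background. From each pathway list, up to 4 genes are named: the 2 with the highest wild-type mean and the 2 with the lowest unadjusted p. Further probe sets are given where their sign differs. Other probe sets and genes were named after their values were seen. Alternatives covered the replicate unit, the filter, the normalization, the floor, the background limit, the choice of probe set and leaving out each array and sample.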

Additional observations from a re-analysis of the deposited data

Results flagged for a closer look

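Among 68 groups of 4 arrays of the same genotype, 2 held an array whose gap to the nearest other array exceeded Dixon's 95% critical value, where chance gives about 1 in 20. For Isg20 in wild type, array 2 of sample 1 read 2.62, below 4.001 to 4.21 on the other 3 wild-type arrays. For Mx1 in wild type, array 2 of sample 2 read 4.98, below 5.56 to 5.67 on the other 3. Without that Isg20 array the difference between genotypes was -0.11 in place of 0.28, and without that Mx1 array it was -0.78 in place of -0.61.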

How the results depend on the processing

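The count of interferon response genes past the limma test was 0 under every alternative run, including the 8 arrays as independent samples and sample number as a replicate block, and likewise for the pathway genes. The labels do not say that a number marks a shared litter or day, so the samples share only a number. With the replicate block, the genes higher at an unadjusted p under 0.05 were 7 instead of 4 (all genes tested 9.38%), and the median difference was 0.18 as without it. With 8 arrays as independent samples they were also 7 (all genes 5.40%), with 2 lower (all genes 3.26%), with the upper 25% of probe sets 1 of 18 (all genes 0.83%), and without 1 sample or array 0 to 6. The median difference was 0.13 with no filter (all genes 0.004) and 0.015 with the upper 25% of probe sets (all genes 0.06). It was 0.22 with quantile normalization added (all genes 0.03) and 0.16 with a gene's probe sets averaged (all genes 0.04). Without 1 sample or array it was 0.10 to 0.21, and over all genes 0.01 to 0.07. With the upper 25% of probe sets, 7 of 18 genes were higher and 2 lower within both numbers, beside 41.1% and 23.7% of all genes, whose median was then 0.06. At this filter neither the share of genes higher within both numbers nor the median was above that of all genes. The genes above background in wild type numbered 28, with a limit 1 unit over the median of all probe sets, to 34. Of 698 single-gene differences recomputed, 88 moved by at least the SD of the gene's 2 within-number differences. The other 610 moved by less or belonged to Ifi27, Oas3, Oasl1 and Usp18, which were judged by sign and adjusted p alone. None of these 4 genes changed sign or passed the limma test under an alternative. The cause of these shifts was not tested.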
